A study of Mus musculus with 4 samples.

Results

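Transcripts of epithelial ion and anion transporters were examined in the small intestine of 2 HNF4 null and 2 control mice. Members were taken by symbol from the probe set annotation: every gene whose name starts with Slc4a, Slc8a, Slc9a, Slc12a, Slc13a, Slc20a, Slc23a, Slc26a, Slc34a or Atp1, together with Cftr. Names that start with Slc9a3r were left out, and Slc9a3r1 and Slc9a3r2 are among the partners below. The rule found 50 genes with 83 probe sets, out of 12393 genes that had a probe set of their own. The rule goes by name alone, and a gene with several probe sets was followed on the brightest of them, by the mean over the 4 arrays. The letters Atp1 also take in 7 genes named Atp10a to Atp13a3, which encode phospholipid flippases, other P-type ATPases and the proton-potassium pump Atp12a and no subunit of the sodium pump, and Slc4a1ap encodes an adaptor protein and not a carrier. Without the genes Atp10 to Atp13, 43 genes remained. The sodium pump subunits of the Atp1a series and the sodium-hydrogen exchangers other than Slc9a8 were not analysed here.

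Both null animals had 1 HNF4 allele flanked by loxP sites and 1 minus allele, and carried villin-Cre, a recombinase driven by a promoter that is active in intestinal epithelium. There was a male and a female null animal. The female control carried a loxP and a wild-type allele with villin-Cre, and the male control carried a loxP and a minus allele without Cre. All were 1 month old, every animal carried a loxP allele, and each gave 1 array from total RNA of small intestine. The labels do not say which HNF4 gene was targeted or which stretch of small intestine was taken, and the controls differed in genotype as well as sex. The p-values rest on the spread among these 4 animals and on a variance shared with other probe sets of like intensity. Within each group that spread is between a male and a female, and in the controls also between genotypes.

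Salt and water cross the intestinal epithelium through transporters that are sorted to the luminal or the basolateral face of the cell. The sodium pump, an alpha and a beta subunit on the basolateral face, keeps cell sodium low, and luminal exchangers use that gradient to absorb sodium chloride and release bicarbonate. In crypts, chloride enters from the blood side through the cotransporter NKCC1, encoded by Slc12a2, and leaves through the chloride channel CFTR, which draws water into the lumen. Other members carry dicarboxylates, sulfate, phosphate or ascorbate into the enterocyte together with sodium.

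HNF4 proteins bind direct repeats of sequences like AGGTCA that are separated by a single base, so that CAAAG and AGGTCA overlap in many of their sites. Starts in the RefSeq table of assembly GRCm38.p6 were found for 40 of the 50 genes, and the 250 bases before 51 such starts were searched on both strands. CAAAG occurred in 19 of the 51 windows (37.3%), against 48.6% of 32851 such windows of all genes. AGGTCA occurred in 6 of 51 (11.8%), against 14% of all windows. The longer motif CAAAGTCCA was found in 0 of 51, against 0.384% of all. The joined motif CAAAGGTCA, searched after the windows had been seen, contains CAAAG and all letters of AGGTCA and was found only in the window of Slc26a3 among these 51, against 0.426% of all windows. The windows of 3 intestinal members follow, because HNF4 is the factor that the labels name and their values are given below, with matches to CAAAG or AGGTCA on either strand in capitals.
Slc26a3, chr12:31437969-31438218, plus strand: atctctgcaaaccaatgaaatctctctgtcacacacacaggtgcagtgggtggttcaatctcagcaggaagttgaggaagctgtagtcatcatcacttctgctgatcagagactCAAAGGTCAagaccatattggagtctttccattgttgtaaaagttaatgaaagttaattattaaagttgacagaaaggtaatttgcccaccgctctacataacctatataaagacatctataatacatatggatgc
Slc34a2, chr5:53049103-53049352, plus strand: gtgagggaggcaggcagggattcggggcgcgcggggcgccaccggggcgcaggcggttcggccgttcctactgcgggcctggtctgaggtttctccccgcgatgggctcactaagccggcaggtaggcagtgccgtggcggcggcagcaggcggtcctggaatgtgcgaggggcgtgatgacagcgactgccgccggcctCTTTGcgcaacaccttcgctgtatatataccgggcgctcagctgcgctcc
Slc13a2, chr11:78422235-78422484, minus strand: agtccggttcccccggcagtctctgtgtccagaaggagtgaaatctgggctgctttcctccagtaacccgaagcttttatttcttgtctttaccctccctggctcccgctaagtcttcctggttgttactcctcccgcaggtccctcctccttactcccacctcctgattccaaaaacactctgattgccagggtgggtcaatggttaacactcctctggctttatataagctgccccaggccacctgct
In the Slc26a3 window the match lies 136 to 128 bases before the start, and in that of Slc34a2 a CAAAG on the other strand lies 50 to 46 bases before it. The Slc13a2 window holds neither motif. These are matches of letters, and binding was not measured.

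Values are deposited intensities after quantile normalization between arrays, called normalised intensity and given for the male and then the female of each genotype, and differences are null minus control on the scale of log2(normalised intensity + 16). The transcripts of the paralogues Hnf4a and Hnf4g, either of which the label HNF4 could mean, did not separate the genotypes. On its brightest probe set Hnf4a gave 1139 and 1029 in the null animals and 733 and 1148 in the controls, a difference of 0.23 (SE 0.22, adjusted p = 1 in limma). Hnf4g, on its brightest, gave 346 and 442 in the null animals and 311 and 393 in the controls. Where these probe sets lie relative to the loxP sites is not given in the labels, so they do not check the genotypes, and null and control name the animals as labelled throughout. Median deposited intensities ran from 43.2 in the male null to 53.3 in the female null animal, and the male null had the lowest correlations with the other arrays (0.927 to 0.946, against 0.955 to 0.963 among the other 3). As a guide to what dim means, 6 probe sets of Y-linked genes reached at most 31.2 in the 2 females. In 15 of the 50 transporter genes all 4 animals were at or under that value. Among these were Slc26a4, which encodes pendrin, Slc26a7, the kidney cotransporter genes Slc12a1 and Slc12a3, and the sodium-calcium exchanger gene Slc8a1. The filter on the dimmest 30% of probe sets left 34 of the 50 genes for testing, and no fold is given for the 16 that it removed.

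No ion transporter gene passed the threshold, an adjusted p under 0.05 in limma over all 15838 probe sets tested, where 0.0126% of all probe sets passed. The largest difference above 0 was that of Slc12a2, the basolateral chloride loader of secretion, at 0.64, and the largest below 0 was that of the ascorbate carrier gene Slc23a1 at −0.80. These 2 genes were also the 2 of 34 (5.88%) with an unadjusted p under 0.05 in limma, against 3.21% of the 9546 genes tested, 1.46% with null higher and 1.75% with null lower. With sex as a block 3 members had such a p in limma, Atp13a2 being the third, against 5.34% of genes, and none passed after adjustment, where 0.262% of genes did. Of the 34 genes 15 were higher and 19 lower in the animals labelled null (55.9% lower, against 49.7% of all genes), with a median difference of −0.01, and 0.001 over all genes. The median of absolute differences was 0.18 among the members and 0.16 among all genes. Within the sexes, null against control, the median of the members was −0.003 between the males and −0.16 between the females.

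**Figure D1:**
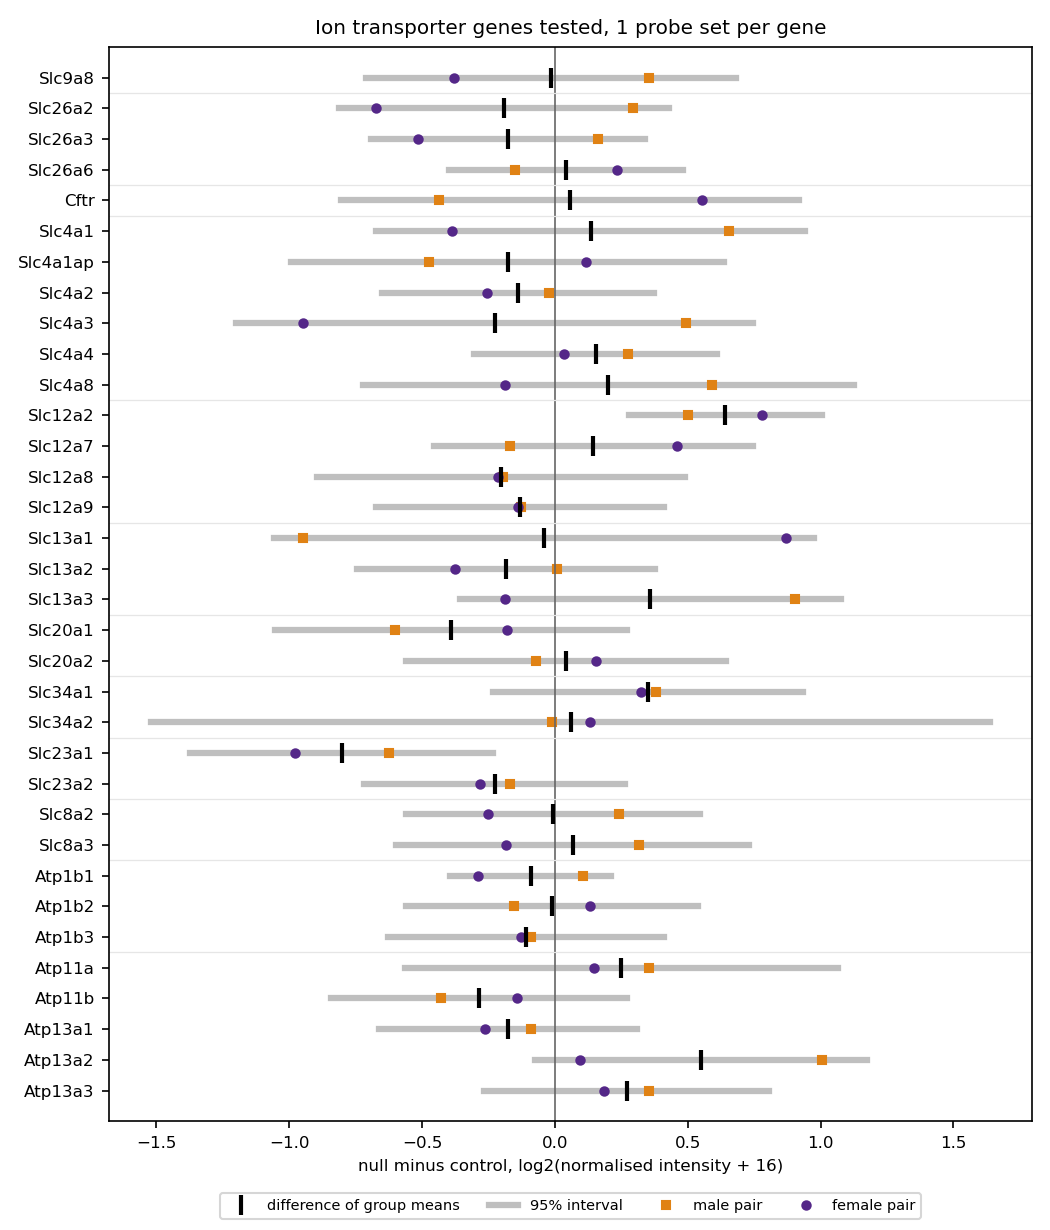
Null minus control difference of each of the 34 ion transporter genes tested, on the scale of log2(normalised intensity + 16), grouped by family. Black bars are differences of group means with 95% intervals of the limma fit in grey, squares the male pair and circles the female pair; the intervals of Slc12a2 and Slc23a1 do not include 0.

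In 8 of the 34 genes (23.5%) both null animals lay outside the range of both controls, against 29.6% of all genes tested. The 4 higher ones were Slc12a2, Slc34a1, Slc4a4 and Atp13a2, and the 4 lower ones were Slc23a1, Slc23a2, Slc4a2 and Atp13a1. The null animals were higher in 14.4% and lower in 15.2% of all genes by the same measure, so that the members stood near or under the background. Signs in the 2 pairs were the same for 15 members and opposite for 19 (55.9%), against 51.8% opposite over all genes.

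**Figure D2:**
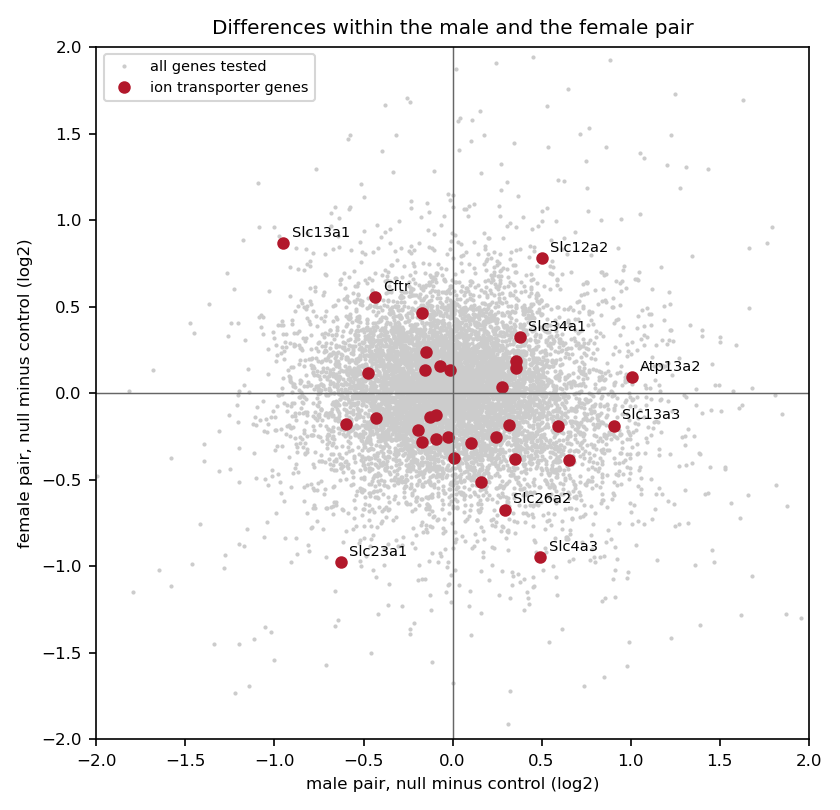
Difference of the male pair (x axis) against that of the female pair (y axis) on the log2 scale, for the ion transporter genes (red) and the other genes tested (grey, with 36 genes beyond the axis limit of 2 not drawn). Slc12a2 lies in the upper right and Slc23a1 in the lower left, while Slc13a1 and Cftr are negative in the male pair and positive in the female pair.

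Among the luminal exchangers and channels, Slc26a3, the chloride-bicarbonate exchanger known as DRA, had normalised intensities of 383 and 296 in the null animals and 340.2 and 431 in the controls. The groups overlapped, at a difference of −0.18 (SE 0.22, 95% interval −0.69 to 0.34, adjusted p = 1 in limma). Its other probe set differed by −0.33 (SE 0.26), where the female control alone stood high at 437 and the other 3 animals lay between 257 and 277.98. Slc26a6, the luminal exchanger PAT1 of the small intestine, measured 518 and 678 in the null animals and 577 and 574 in the controls. The male null was the lowest and the female null the highest of the 4, for a difference of 0.04 (SE 0.18, 95% interval −0.40 to 0.48). Slc26a2, which carries sulfate, gave 337 and 254 in the null animals and 272 and 414 in the controls, at −0.19 (SE 0.26), again overlapping.

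Cftr, the chloride channel of crypt cells, had intensities of 115 and 264 in the null animals and 161 and 175 in the controls. The null animals stood on either side of the controls, at −0.44 between the males and 0.55 between the females, so that the mean difference of 0.06 had an interval from −0.80 to 0.92. Slc9a8, a sodium-hydrogen exchanger of intestinal epithelium, showed the reverse order, with 96.7 and 52.5 in the null animals and 72.3 and 73.1 in the controls. The other 5 Slc26 genes did not pass the filter on dim probe sets.

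The Slc4 family holds bicarbonate carriers. Slc4a4, the basolateral sodium-bicarbonate cotransporter, read 268 and 239 in the null animals and 219 and 233 in the controls on its brightest probe set. Both null animals were above both controls there, at 0.15 (SE 0.19), but 2 further probe sets of the gene gave −0.16 and −0.14 with overlapping groups. Slc4a2, the anion exchanger AE2, read 97.4 and 83.3 in the null animals and 99.2 and 102 in the controls, lower by less than the error of the fit (−0.14, SE 0.21). Slc4a3 and Slc4a8 differed by −0.23 and 0.20 with opposite signs in the pairs. Slc4a1, the anion exchanger of red cells, read 87.6 and 38.4 in the null animals and 49.7 and 55.2 in the controls. The 1 red cell marker that was tested, Hba-a1, was also highest in the male null, at 116, with the other 3 animals between 72.6 and 79.5. Of the 2 red cell markers that did not pass the filter, Alas2 was highest in the male null, at 37.0, and Epb42 was lowest there, at 10.7.

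Slc12a2 had the clearest pattern of the group. Its brightest probe set measured 969 and 1128 in the null animals and 679 and 649.6 in the controls. Both null animals lay above both controls, and the mean intensity was 1.58 times that of the controls. On the log2 scale the means were 10.05 ± 0.15 in null and 9.41 ± 0.04 in control animals (SD, n = 2 each), a difference of 0.64 (SE 0.15, 95% interval 0.28 to 1.01). It had an unadjusted p of 0.00443 and an adjusted p of 1 in limma, or 0.209 in limma with sex as a block, so it did not pass in either fit. Of its 2 other probe sets, the dimmer gave 223 and 217 in the null animals and 146 and 138 in the controls, with a difference of 0.58 (SE 0.20). The brighter of these gave 247 and 335 in the null animals and 189 and 256 in the controls. There the groups overlapped, while within each sex the null animal was the higher, at 0.36 between males and 0.37 between females. Probe sets of 1 gene share the same RNA and are not replicates.

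Of the other cation-chloride cotransporters, the potassium-chloride cotransporter gene Slc12a7 read 195 and 202 in the null animals and 221 and 142 in the controls, and the difference of 0.15 (SE 0.25) was within the spread of the controls. Slc12a8 and Slc12a9 differed by −0.20 and −0.13, the same way in both pairs and by less than their standard errors.

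**Figure D3:**
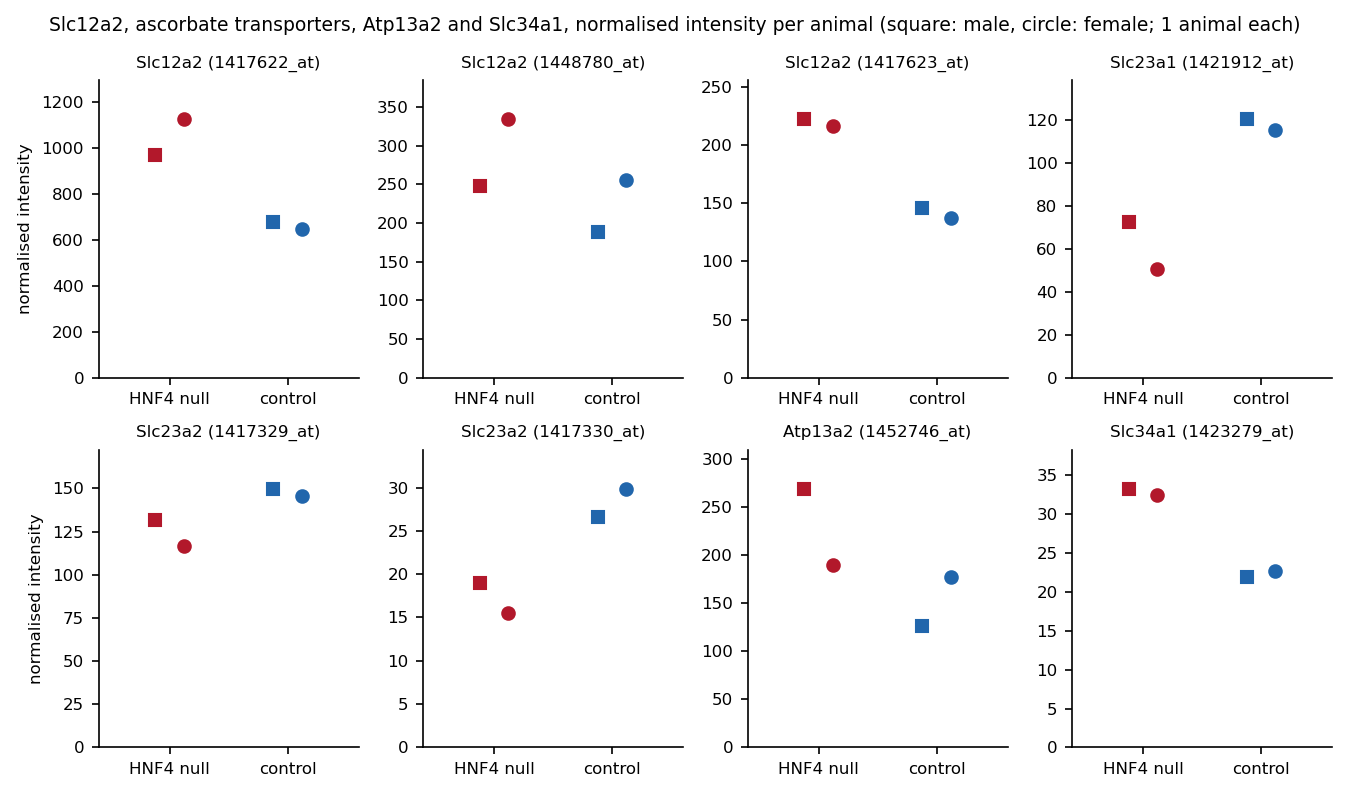
Normalised intensity per animal (y axis, linear, from 0) in HNF4 null (red, left) and control animals (blue, right) on the 3 probe sets of Slc12a2, the brighter probe set of Slc23a1, both of Slc23a2, and those of Atp13a2 and Slc34a1 with the highest mean. Squares are males and circles females; the groups overlap only on the Slc12a2 probe set of intermediate brightness.

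Of the 3 genes of the Slc23 family, Slc23a1 had the largest difference and none passed. Slc23a1, the sodium-dependent vitamin C transporter SVCT1 of absorptive epithelium, gave 72.6 and 50.7 in the null animals and 121 and 115 in the controls on its brighter probe set. Control intensity was 1.92 times that of the null animals on average, and the groups did not overlap. The log2 means were 6.26 ± 0.29 in null and 7.07 ± 0.04 in control animals (SD, n = 2 each), a difference of −0.80 (SE 0.24, 95% interval −1.37 to −0.23). Its unadjusted p was 0.0131 and its adjusted p was 1 in limma, or 0.636 in limma with sex as a block. Its other probe set, which did not pass the filter, gave 13.9 and 5.1 in the null animals and 16.6 and 5.2 in the controls. Those groups overlapped, and all 4 values were within the range of the Y-linked probe sets in females. With the mean over the probe sets of a gene, Slc23a1 was not among the members with an unadjusted p under 0.05 in limma. Slc23a2, the more widely expressed SVCT2, read 132 and 117 in the null animals and 149.95 and 146 in the controls, at −0.23 (SE 0.21). Its dimmer probe set, which did not pass the filter, gave 18.9 and 15.5 in the null animals and 26.6 and 29.9 in the controls, all within the range of the Y-linked probe sets in females. The third gene, Slc23a3, did not pass the filter.

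Among sodium-coupled carriers of organic acids and sulfate, Slc13a2, which moves dicarboxylates of the citric acid cycle, read 871 and 557 in the null animals and 867 and 728 in the controls. The male pair was level (0.006) and the female pair lower (−0.38), for a difference of −0.18 (SE 0.23, 95% interval −0.75 to 0.38). Slc13a1, a sulfate transporter, read 65.3 and 109.7 in the null animals and 141 and 52.9 in the controls. The null animal was lower among the males (−0.95) and higher among the females (0.87). Slc13a3 differed the other way, by 0.90 among the males and −0.19 among the females.

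The phosphate carriers also showed no shared direction. Slc34a2, the luminal sodium-phosphate cotransporter NaPi-IIb, gave 39.7 and 163 in the null animals and 40.1 and 147 in the controls. Both females were high and both males low, whatever the genotype label. Within the pairs the differences were −0.01 and 0.13, while the standard error over the 4 animals was 0.66. Sex cannot be told apart here from what the adjacent animal numbers may stand for. Slc34a1, its kidney relative, read 33.3 and 32.4 in the null animals and 21.9 and 22.7 in the controls. The null animals were only just above the highest Y-linked value in females and the controls below it, so the size of the difference of 0.35 (SE 0.24) is uncertain. Slc20a1, a housekeeping phosphate transporter, read 60.8 and 103 in the null animals and 100.4 and 119 in the controls, at −0.39 (SE 0.28). Slc20a2 differed by 0.04 (SE 0.25).

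**Figure D4:**
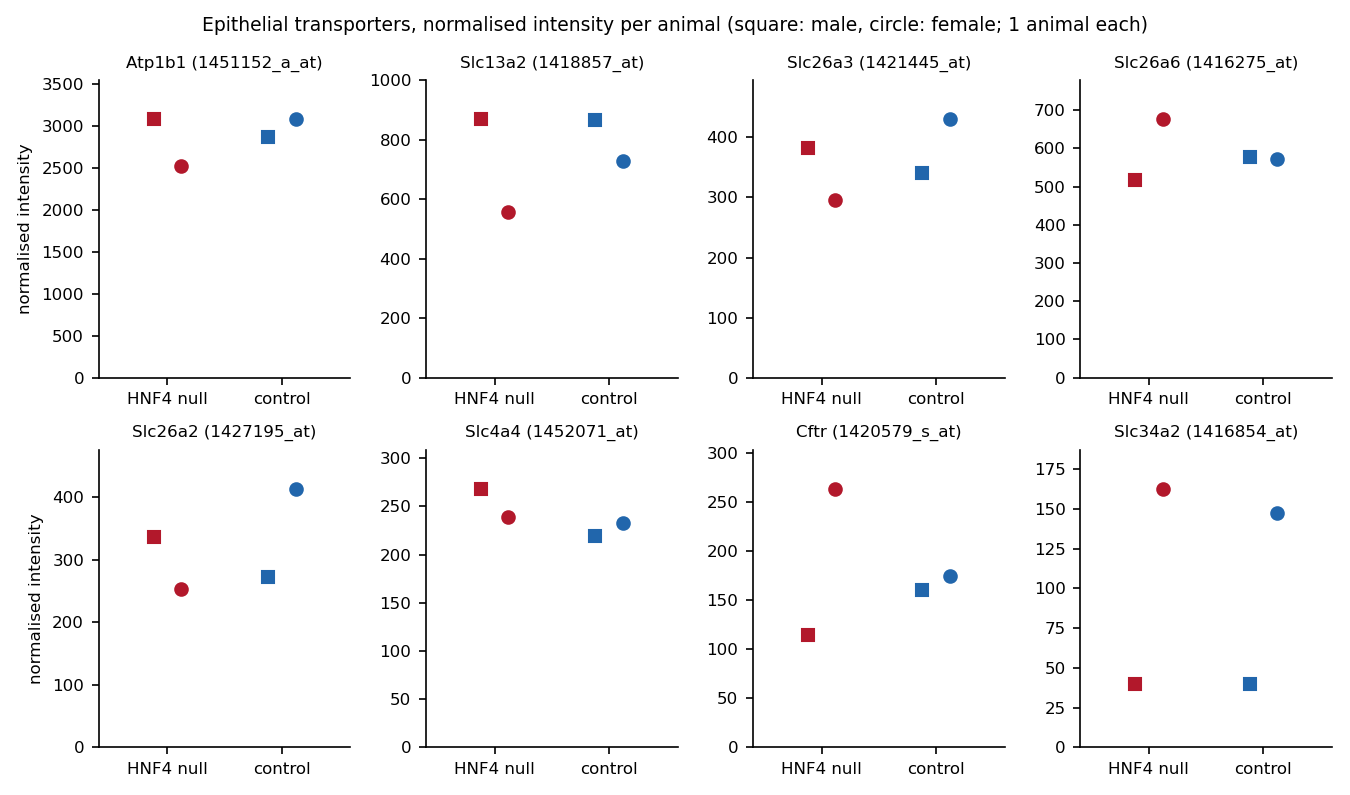
Normalised intensity per animal (y axis, linear, from 0) of 8 members in HNF4 null (red, left) and control animals (blue, right), with squares for males and circles for females. Groups overlap in 7 of the 8 panels, Slc4a4 being the exception, and the Slc34a2 panel shows both females near 150 and both males near 40.

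The sodium pump was represented by its beta subunits, which the pump needs for assembly and delivery to the membrane. Atp1b1, the main epithelial beta subunit, gave 3086 and 2523 in the null animals and 2867 and 3086 in the controls. The female null was the lowest of the 4, and the difference of −0.09 (SE 0.13, 95% interval −0.39 to 0.21) was within the spread of the animals. A further 3 bright Atp1b1 probe sets gave −0.07, −0.08 and −0.02, and a much dimmer one 0.18. Atp1b3 read 137 and 162 in the null animals and 147.5 and 179 in the controls, at −0.11 (SE 0.22). Atp1b2 differed by −0.01 (SE 0.23). The sodium-calcium exchanger genes Slc8a2 and Slc8a3 differed by −0.01 and 0.07.

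Of the Atp10 to Atp13 genes, 5 passed the filter. Atp13a2, a lysosomal polyamine exporter, read 269 and 189.8 in the null animals and 126 and 177 in the controls. The null animals were the higher, yet nearly all of the difference of 0.55 (SE 0.26, 95% interval −0.08 to 1.17) came from the male pair, at 1.01 against 0.09 in the female pair. Its 2 other probe sets gave −0.07 and −0.06. Atp13a3 differed by 0.27 (SE 0.22) and the flippase gene Atp11b by −0.28 (SE 0.23), both with overlapping groups.

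The list of partners and regulators of ion transport held 55 genes, 51 with a probe set and 43 tested. It covers scaffolds such as Slc9a3r1, the Fxyd modulators of the sodium pump, potassium and chloride channels, carbonic anhydrases, guanylate cyclase signalling, aquaporins and calcium absorption. None passed over all probe sets in limma, and 2 of 43 (4.65%) had an unadjusted p under 0.05, against 3.21% of all genes. Of the 43, 23 were higher and 20 lower in null animals, with a median of 0.02. In 18 (41.9%) the groups did not overlap, against 29.6% of all genes. Null was higher in 12 and lower in 6 of these, where 14.4% and 15.2% of all genes were. The list was chosen with earlier results of these data known, so no conclusion is drawn from this count.

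S100g, the vitamin D-dependent calcium-binding protein calbindin-D9k of enterocytes, gave 67.3 and 158 in the null animals and 19.6 and 45.9 in the controls. Both null animals were higher, at 1.36 (SE 0.42, adjusted p = 1 in limma), although the lower control lay under the highest Y-linked value in females, which leaves the size uncertain. Fxyd3, a modulator of the sodium pump, gave 359 and 230.2 in the null animals and 177 and 135 in the controls, at 0.83 (SE 0.27). The calcium-activated chloride channel gene Ano1 read 166 and 161 in the null animals and 140.3 and 96.0 in the controls, at 0.44 (SE 0.24). Prkg2, the cyclic GMP kinase that acts on luminal chloride and sodium transport, read 305 and 416 in the null animals and 257 and 263 in the controls, at 0.43 (SE 0.21).

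Car4 and Aqp1 were lowest in the female null animal. For Car4 both null animals lay below both controls, at −0.68 between the males and −3.27 between the females, while for Aqp1 the groups overlapped. Car4, the carbonic anhydrase on the enterocyte surface, gave 373 and 29.6 in the null animals and 606 and 425 in the controls. Its difference of −1.98 (SE 0.88, adjusted p = 1 in limma) had a 95% interval from −4.07 to 0.12 and moved from −2.25 with a pseudocount of 1 to −1.50 with one of 64. The value of the female null lay under the highest Y-linked value in females, which leaves the size uncertain. Without the male null, Car4 passed at an adjusted p of 0.00567 in limma, resting on that 1 dim value, and without the female null the difference was −0.44. The water channel gene Aqp1 read 828 and 331 in the null animals and 908 and 665 in the controls, and its difference of −0.55 (SE 0.40) was 0.09 without the female null. S100g and Fxyd3 kept values above 0 whichever animal was left out, at 0.83 to 1.88 for S100g and 0.53 to 1.151 for Fxyd3.

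**Figure D5:**
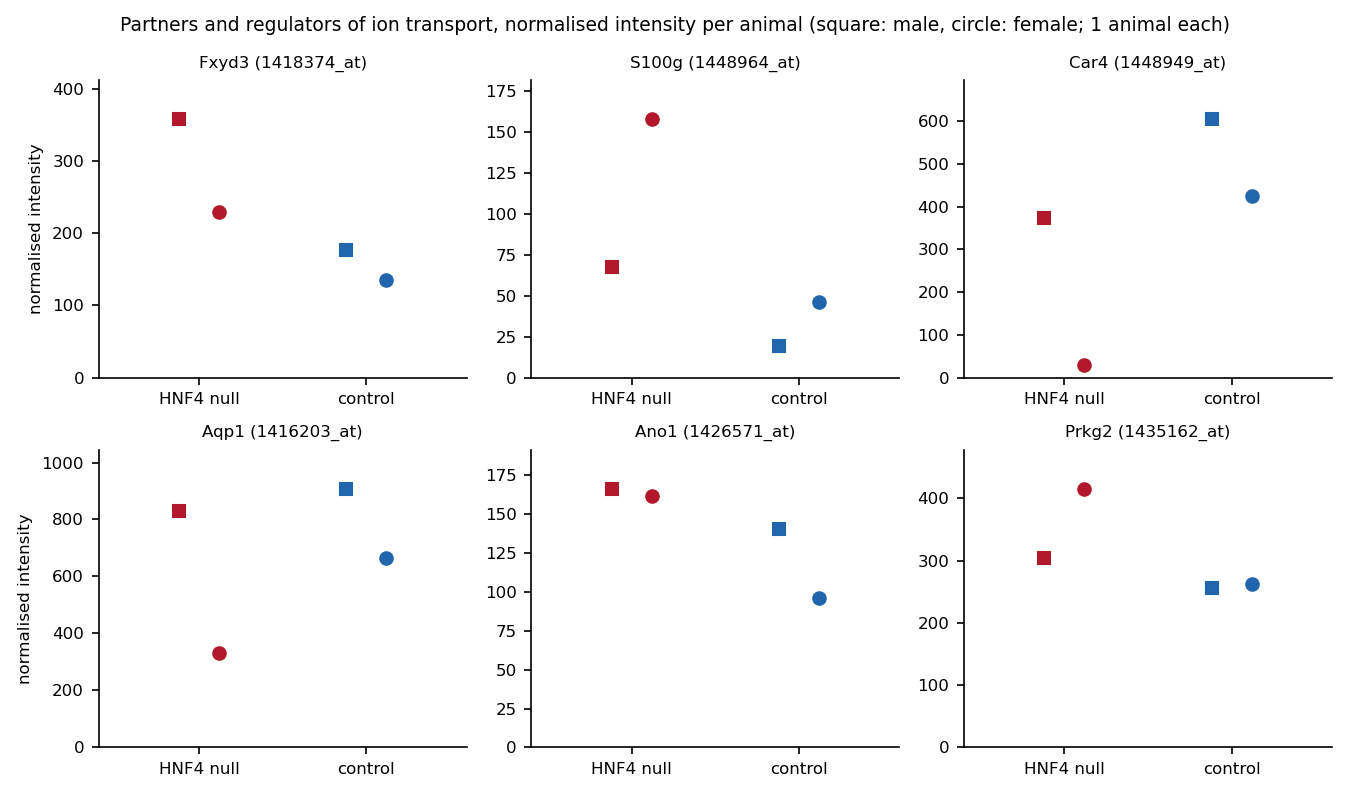
Normalised intensity per animal (y axis, linear, from 0) of 6 partners and regulators of ion transport in HNF4 null (red, left) and control animals (blue, right), with squares for males and circles for females. Fxyd3, S100g, Ano1 and Prkg2 are higher in both null animals. Car4 is lower in both null animals and Aqp1 overlaps, and both genes are lowest in the female null animal.

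Markers of cell types also differed between the animals, on lists chosen with earlier results of these data known. All 7 goblet cell markers tested were higher in both null animals than in both controls, with summed intensities of 22690 and 21580 in null animals and 17770 and 17440 in controls. Over all genes tested 14.4% were higher in that way. Of the 10 enterocyte markers 7 had a difference below 0, as did 49.7% of all genes. Their sums were 41640 and 40790 in null animals and 43110 and 43630 in controls. Both null animals lay below both controls for 4 of these 10 and above them for 1, against 15.2% and 14.4% of all genes. All 7 T cell markers tested were lower in both pairs, as were 24.2% of all genes. By the measure used for goblet cells, only 3 of these 7 were lower in both null animals than in both controls, against 15.2% of all genes. The T cell sums were 947 and 739 in null animals and 1184 and 1270 in controls. Smooth muscle markers summed to 3078 and 4229 in null animals and 3188 and 2948 in controls. Of the 10 tested, 9 had a difference above 0, against 4797 of all 9546 genes. Of these 10, 3 were higher in both null animals than in both controls, as were 14.4% of all genes. Their median was −0.23 between the males and 0.68 between the females. Pancreatic acinar markers had their highest sum in the male null, at 1070, against 660 in the female null and 647 and 687 in the controls. Cpa1 alone gave 574 of that 1070. Ctrb1 went the other way, with 48.7 in the male null and its highest value, 59.8, in the female control. No list had a marker at 0 in all 4 animals. The part of these differences in the values of Slc12a2 and Slc23a1 was not tested, and in RNA of whole tissue fewer cells of a type cannot be told apart from less RNA per cell.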

How the data were processed

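Total RNA of small intestine from 4 mice was hybridised to 1 Affymetrix array each, with biotin labelling by the maker's standard protocol, per the labels. The authors deposited 1 table of linear intensities, with 22690 probe sets. The sources used here do not give the summarising software or any scaling. A small share of intensities (1.42% to 2.46% per array) was below 0. No read depth exists for arrays, and their number limits the precision. Here 64 controls were left out, the other 22626 probe sets were quantile normalised (limma 3.58.1, R 4.3.3), values below 0 were set to 0, and log2(intensity + 16) was taken. The dimmest 30% by mean were not tested. Null was compared with control over 2 animals each with lmFit and eBayes with an intensity trend, and Benjamini-Hochberg adjustment was made over all 15838 probe sets. Intervals are 95%, and there were 2 residual and 4.65 prior degrees of freedom. The fit was tested on simulated data with 50 changed probe sets out of 15838. It recovered 6% of changes of 1 on the log2 scale, 78% of changes of 2 and 94% of changes of 3, with 4 false calls. Most changes of 1 were thus missed, and smaller ones were not simulated. A gene that did not pass can therefore still differ.

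Gene symbols came from the platform annotation: 20380 probe sets had 1 gene, 691 several and 1555 none, and only those with 1 gene were named. The genes named are those with an unadjusted p under 0.05, those differing by at least 0.5 with the same sign in both sexes, the 12 brightest members, textbook transporters of intestinal epithelium, and the 6 partners with the largest difference of the same sign in both sexes. Further members are named to account for the whole group. The members and the lists of partners and markers were chosen with earlier results of these data known. Alternatives were a sex block, no normalization, median scaling, pseudocounts of 1 and 64, no filter and a 50% filter, no trend, the mean over probe sets, the members without Atp10 to Atp13, and leaving out each animal. The no-overlap count under median scaling and as deposited was chosen after seeing the data.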

Additional observations from a re-analysis of the deposited data

Results flagged for a closer look

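Among the members named for p-value, size of difference, brightness or textbook role, 8 had opposite signs in the female and the male pair, each null minus control. Of these 8, 7 were among the 12 brightest members. Opposite signs were found in 19 of all 34 members tested (55.9%) and in 51.8% of all genes tested. The difference between the sexes was not tested, since there was 1 animal per sex and genotype. The female pair minus the male pair was 0.99 for Cftr, 0.63 for Slc12a7, 0.38 for Slc26a6 and 0.14 for Slc34a2 on the log2 scale. It was −0.97 for Slc26a2, −0.68 for Slc26a3, −0.39 for Atp1b1 and −0.38 for Slc13a2. The controls of the 2 sexes also differed in Cre and in the second HNF4 allele, so sex and control genotype cannot be told apart here.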

How the results depend on the processing

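Members past the threshold numbered 0 under every alternative run. Across all probe sets, 2 passed as reported, 1 without the trend, 29 with sex as a block, and 0 to 35 when 1 animal was left out; it was 35 without the male null, 10 without the female null, 0 without the male control and 3 without the female control. Members with an unadjusted p under 0.05 in limma numbered 2, against 4 with no filter, 3 with sex as a block and 1 to 8 when 1 animal was left out (5 without the male null, 8 without the female null, 1 without either control). The share of all probe sets with such a p moved with it, from 3.03% as reported to 3.17% with no filter, 5.08% with the block, 8.28% without the male null, 17.4% without the female null, 1.29% without the male control and 1.42% without the female control. Partners with such a p numbered 2, 6 with the block or with either null animal left out, and 3 or 1 with the female or the male control left out; 2 partners passed after adjustment without the male null. No paired analysis by replicate number was possible because no number is shared between the groups; the block is sex. The share of members lower was 55.9%, against 63.3% with the mean over probe sets and 48.5% to 56.2% when 1 animal was left out. The member median ran from −0.07 to 0.004 and the partner median from 0.012 to 0.097 when 1 animal was left out; the partner median was −0.026 with no normalization and 0.0084 with a pseudocount of 64. The no-overlap count was 8 as reported, where 29.6% of all genes did not overlap, 9 under median scaling and 10 as deposited. The share over all genes was not counted under the last 2, so their counts have no background.

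Leaving out 1 animal turned the sign of Atp1b1 (−0.24 to 0.053), Slc13a2 (−0.50 to 0.13), Slc26a6 (−0.15 to 0.24), Cftr (−0.49 to 0.60), Slc34a2 (−0.78 to 0.90), Aqp1 (−1.17 to 0.087), Slc26a2 (−0.48 to 0.10), Slc12a7 (−0.15 to 0.43) and Atp1b3 (−0.23 to 0.019), and the cause was not tested. Slc26a6 was −0.00094 with no normalization. Slc12a2 ran from 0.53 to 0.74 and Slc23a1 from −1.005 to −0.60 in the same way. With 1 animal left in a group, that animal is assumed to vary like the other group.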

Other observations

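Among the 16 transporter genes that were not tested, 5 had both null animals outside the range of both controls, 1 higher (Slc26a4) and 4 lower (Slc12a1, Slc12a4, Slc26a5 and Slc26a8). Of all genes tested 29.6% separated in that way, 14.4% higher and 15.2% lower. The share over all genes that the filter removed was not counted, so the 5 are not read as a result about the members. The 2 given here were chosen after their values were seen, as those with an unadjusted p under 0.05 in limma when no filter is set. Slc26a4, which encodes pendrin, gave normalised intensities of 21.9 and 27.3 in the male and female null animals and 6.7 and 7.5 in the male and female controls. Slc12a4, a potassium-chloride cotransporter gene, gave 1.0 and 11.5 in the null animals and 25.8 and 30.1 in the controls. All values of the 5 genes were under 31.2, the highest value of Y-linked probe sets in females, so no fold is given.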
